A study of Mus musculus with 32 samples.

Results

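In mouse HoxB8 progenitors, 909 autosomal H3K4me1 regions of control cells had no H3K4me1 peak in any of the 3 libraries from cells expressing CSF3R T618I. They were 6.36% of the 14301 autosomal control regions found in both control libraries. A region was a peak of control replicate 1 that overlapped a peak of control replicate 2 by at least 1 bp, and it was counted as lost when it overlapped no peak of the 3 CSF3R T618I libraries. Of the other reproducible regions, 832 overlapped a peak in 1 CSF3R T618I library, 1518 in 2 and 11042 in all 3, and these 11042 are called kept. The lost regions were chosen by H3K4me1 peaks in control and CSF3R T618I cells, so those values are a description, and H3K4me1 was tested only in the libraries with the Asxl1 guide, which the rule did not use.

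H3K4me1, monomethylation of lysine on the histone H3 tail, marks enhancers and the flanks of promoters and is laid down mainly by the MLL3 and MLL4 methyltransferases. Enhancers of blood progenitors gain or lose it as cells choose a lineage. H3K27me3 and H2AK119ub are the repressive marks of Polycomb repressive complexes PRC2 and PRC1, and Asxl1 is the partner of Bap1, the enzyme that removes ubiquitin from H2A.

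The cells were an estrogen-dependent progenitor line immortalised from mouse bone marrow with HoxB8 and kept in medium with stem cell factor, and chromatin was profiled 48 h after estrogen withdrawal by CUT&Tag, in which an antibody directs a transposase to cut at the marked nucleosomes. Control cells (sgNT/E, n = 2) carried a non-targeting guide and the empty pMICH vector, and CSF3R T618I cells (sgNT/T, n = 3) carried the same guide and pMICH with CSF3R T618I, an activating mutant of the receptor for granulocyte colony-stimulating factor. Asxl1 guide cells (sgB2/E, n = 3) carried a guide meant to truncate Asxl1 and the empty vector, and double cells (sgB2/T, n = 2) carried the Asxl1 guide and CSF3R T618I. All groups thus shared the HoxB8 immortalisation and the loss of estrogen, all came from this type of immortalised line, and CSF3R T618I was overexpressed from a vector. The labels do not say that replicates were separate cultures, so p-values measure the spread between these libraries, which may be technical.

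The files held peak positions alone, so the sequencing depth and the signal in each peak are unknown, and editing of Asxl1 or expression of CSF3R T618I could not be read from them. H3K4me1 peaks covered 26.6 to 47.2 Mb per library, H3K27me3 4.73 to 53.0 Mb and H2AK119ub 11.8 to 39.1 Mb. Asxl1 guide replicate 2 stood apart, with the least H3K4me1 (26.6 Mb) and the most H3K27me3 (53.0 Mb). Reproducible control H3K4me1 regions lay nearest to 21 of 26 myeloid transcription factor genes and to 10 of 31 lymphoid genes, and none lay nearest to a gene of the Hox list, so HoxB8 itself was not checked by this mark.

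Few control regions of any kind sat on a promoter. Of 872 lost regions on chromosomes with annotated start sites here, 14 (1.61%) had their centre within 1 kb of one. For all reproducible regions this was 2.00%. A start site lay inside 7 of the lost regions (0.803%) and inside 2.22% of all reproducible regions, which were wider (median 500 against 1550 bp). Start sites were held for only 16011 of 20145 protein-coding genes. The bases upstream of the start site lay wholly inside a lost region at 3 RefSeq promoters, Orm3, Hebp1 and Drc7. Orm3 encodes an orosomucoid, an acute-phase plasma protein, Hebp1 a heme-binding protein and Drc7 a part of the dynein regulatory complex of cilia. The sequences of these 3, of 9 promoters that overlapped a lost region, are shown because they lay wholly inside one. That of Irf8 is shown because 4 regions after its start site were lost. Each is the 250 bases before the start site in RefSeq (GRCm38.p6, the same assembly as mm10), read along the gene's strand, with motif matches in capitals. They are chr4:63355908-63356157 (plus strand) for Orm3, chr6:135168216-135168465 (minus) for Hebp1, chr8:95054853-95055102 (plus) for Drc7 and chr8:120736108-120736357 (plus) for Irf8.
Orm3: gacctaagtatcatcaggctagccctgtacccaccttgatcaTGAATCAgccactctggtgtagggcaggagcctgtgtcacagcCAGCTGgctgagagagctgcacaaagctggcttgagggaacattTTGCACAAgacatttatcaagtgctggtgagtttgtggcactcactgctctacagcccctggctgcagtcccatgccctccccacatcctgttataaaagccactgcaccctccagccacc
Hebp1: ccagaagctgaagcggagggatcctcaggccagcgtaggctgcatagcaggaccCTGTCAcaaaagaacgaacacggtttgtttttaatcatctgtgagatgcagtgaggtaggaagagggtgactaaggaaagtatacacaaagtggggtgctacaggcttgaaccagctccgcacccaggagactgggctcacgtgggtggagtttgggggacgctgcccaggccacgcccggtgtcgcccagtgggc
Drc7: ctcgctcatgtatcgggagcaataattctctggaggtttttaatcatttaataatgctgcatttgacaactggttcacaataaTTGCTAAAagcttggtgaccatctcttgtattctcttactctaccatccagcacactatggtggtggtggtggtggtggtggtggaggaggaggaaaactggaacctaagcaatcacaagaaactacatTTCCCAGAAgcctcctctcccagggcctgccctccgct
Irf8: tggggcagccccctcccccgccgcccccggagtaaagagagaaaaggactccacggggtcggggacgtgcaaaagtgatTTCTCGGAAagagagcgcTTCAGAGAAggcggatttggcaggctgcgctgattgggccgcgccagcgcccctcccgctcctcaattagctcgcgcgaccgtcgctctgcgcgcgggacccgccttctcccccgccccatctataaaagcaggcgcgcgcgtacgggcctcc

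Motifs were searched on both strands. The C/EBP letters TTGCNNAA matched in Orm3 and Drc7 and in 9.19% of 20085 promoters of the same length. The AP-1 letters TGANTCA and the E-box CAGCTG matched in Orm3 (6.18% and 12.2% of promoters). The STAT letters TTCNNNGAA matched once in Drc7 and at 2 places in Irf8 (6.66% of promoters), and the MEIS letters TGACAG matched in Hebp1 (15.1%). The letters for PU.1 (GAGGAAGT, 2.26%), RUNX (TGTGGT, 12.2%) did not match in these 4 windows, nor did AGATAA, the letters of the GATA family (8.72%). In the lost region over Drc7, peaks covered fractions of 0.86, 0.83 and 0.90 in the Asxl1 guide libraries and 0 in both double libraries. Over Hebp1 the fractions were 1, 0 and 0.44 against 0 and 0, and over Orm3 the 5 libraries with the Asxl1 guide had no peak. These values are a description.

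Lost regions were narrow. Their median width was 500 bp (quartiles 300 and 900 bp, widest 7050 bp), against 2000 bp for kept regions (quartiles 1000 and 3800 bp). Among reproducible regions of 200 to 400 bp 392 of 1959 were lost, among those of 450 to 900 bp 293 of 2728 (10.7%), and among those over 900 bp 224 of 9614 (2.33%). The lost regions covered 0.659 Mb in all and the kept regions 33.0 Mb. Gene bodies held 60.2% of lost and 59.2% of kept regions. IgG control peaks overlapped 3.74% of lost and 12.5% of kept regions, shares that were not matched for width although kept regions were wider. The lost share per chromosome ran from 4.93% to 9.74%.

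At the edge of the rule, 17 lost regions touched a CSF3R T618I peak end to end and 87 had one within 1 kb, and the median distance to the nearest such peak was 5.70 kb. Just outside it, the 832 regions kept in 1 library were kept 505 times by CSF3R T618I replicate 3, which had the widest peak coverage of that group (47.2 Mb), and 13 of them by an overlap of at most 50 bp. Without CSF3R T618I replicate 3 the rule gave 1414 regions instead of 909.

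In cells with the Asxl1 guide alone many of the lost regions still carried H3K4me1, and in double cells few did. A peak lay on 67.3%, 36.5% and 61.4% of the 909 lost regions in the 3 Asxl1 guide libraries (mean 55.1% ± 16.3, SD, n = 3). It lay on 16.0% and 7.81% in the 2 double libraries (mean 11.9% ± 5.76, SD, n = 2). Every double library was thus below every Asxl1 guide library, and without Asxl1 guide replicate 2 the mean of that group was 64.4%. In bulk chromatin, fewer cells with the mark and less of the mark per cell cannot be told apart. On kept regions the means were 92.1% ± 4.98 (SD, n = 3) and 87.8% ± 5.05 (SD, n = 2), and the libraries of the 2 groups overlapped. The 2350 regions kept in 1 or 2 CSF3R T618I libraries lay between, at 70.9% ± 14.9 (SD, n = 3) with the Asxl1 guide and 39.7% ± 15.6 (SD, n = 2) in double cells, and there too every double library was below every Asxl1 guide library. Total H3K4me1 coverage did not order the groups in this way, at 38.3, 26.6 and 34.9 Mb with the Asxl1 guide and 43.5 and 30.0 Mb in double cells.

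**Figure D1:**
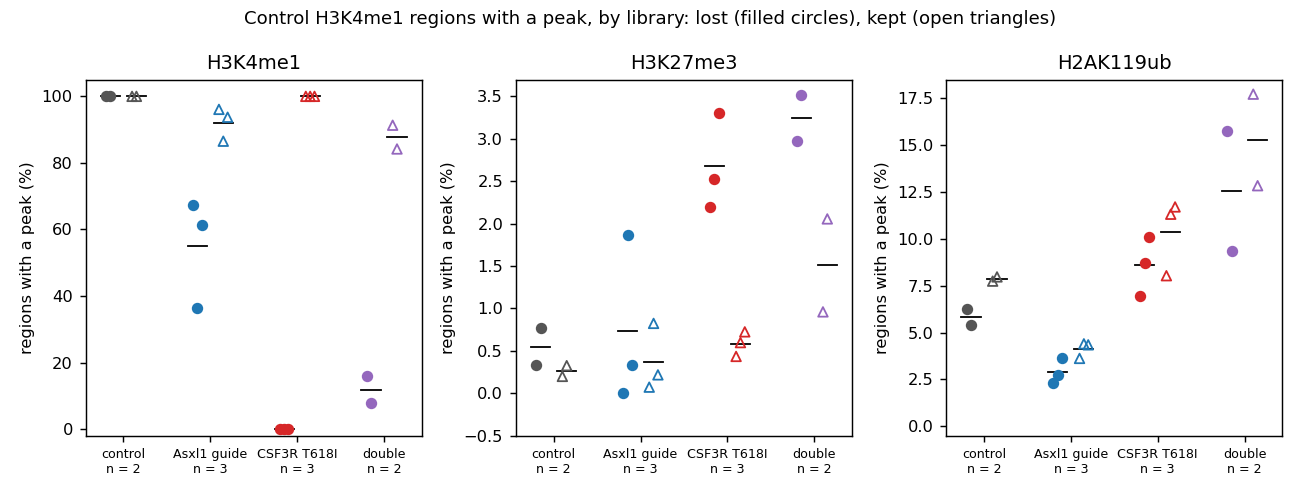
Percent of lost regions (filled circles, 909 regions) and kept regions (open triangles, 11042 regions) with a peak, one point per library, with black lines at group means and a separate vertical scale for each mark. The H3K4me1 values of control and CSF3R T618I cells were fixed by the rule, and the double libraries lie at 16.0% and 7.81% of lost regions.

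The gap was present at every width. In lost regions of 200 to 400 bp the mean share with an H3K4me1 peak was 44.9% ± 16.9 (SD, n = 3) with the Asxl1 guide and 11.4% ± 5.59 (SD, n = 2) in double cells. In lost regions of 450 to 900 bp it was 59.5% ± 17.4 (SD, n = 3) against 13.3% ± 6.76 (SD, n = 2). In those over 900 bp it was 67.1% ± 14.5 (SD, n = 3) against 10.9% ± 4.74 (SD, n = 2). Kept regions of 200 to 400 bp went the other way, at 64.9% ± 17.0 (SD, n = 3) against 78.2% ± 7.95 (SD, n = 2), with overlapping libraries.

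**Figure D2:**
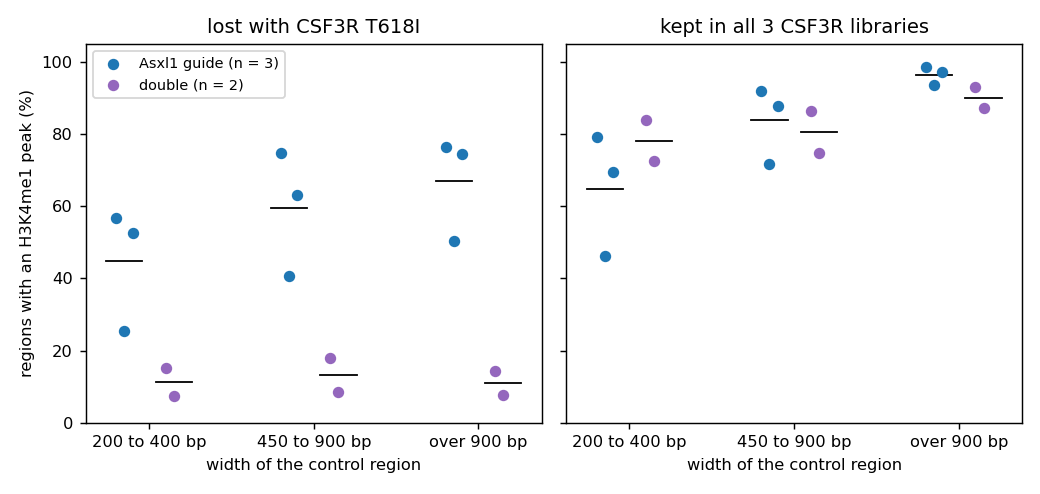
Percent of regions with an H3K4me1 peak in the 3 Asxl1 guide and 2 double libraries, by width of the control region, for lost (left) and kept (right) regions; points are libraries and lines are means. In lost regions the double libraries lie below the Asxl1 guide libraries at each width, with means of 11.4%, 13.3% and 10.9%.

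By pattern, 210 lost regions (23.1%) had a peak in all 3 Asxl1 guide libraries and in neither double library, a pattern found in 7.93% of all reproducible regions, 19.5% of those kept in 1 or 2 CSF3R T618I libraries and 4.21% of kept ones. The opposite pattern, no peak in the Asxl1 guide libraries and a peak in both double libraries, was found in 7 lost regions (0.770%), against 1.11% of all. A further 178 lost regions had no peak in any of these 5 libraries, 37 had one in all 5, and 60 had one in both double libraries.

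The fraction of each region covered by peaks was then compared between double and Asxl1 guide cells with limma over all reproducible regions. A region entered when at least 2 of the 5 libraries reached a fraction of 0.2, which 13123 regions and 519 of the lost regions did. At an adjusted p under 0.05, 124 lost regions fell and 7 rose in double cells, where 9.42% of all regions tested were lower and 2.54% higher. A lost region could pass this minimum through the Asxl1 guide libraries alone, and the 7 that rose passed it through the double libraries alone. The comparison was therefore repeated with no minimum, and 120 of the 909 lost regions fell against 1168 of all 14301, while 7 rose against 314 of all. The median difference in fraction was then -0.29 for lost and -0.05 for all regions. Of the 124 regions, 117 were at 0 in both double libraries. These entered the test through the Asxl1 guide libraries alone, so their values are a description, also where they are named below. In 33 of the 124 neither group had any spread, so their p-values rest on the variance limma borrowed from other regions. The number that fell was 241 without Asxl1 guide replicate 2, 76 without double replicate 1 and 57 without double replicate 2. With the regions extended by 500 bp on each side it was 68. With the replicate number as a block it was 0, although the numbers are not shown to pair the samples.

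Irf8, the transcription factor that directs progenitors towards monocytes and dendritic cells, lost H3K4me1 over a run of neighbouring regions. Of its 5 reproducible regions 4 were lost, from chr8:120744001-120744200 to chr8:120783851-120784300, centred 7.74, 30.6, 44.1 and 47.7 kb after the first start site. The first lies in the gene and the other 3 downstream of it. Peaks wholly covered the regions of 200, 500 and 450 bp in all 3 Asxl1 guide libraries and were absent in both double libraries. The region of 1800 bp had fractions of 0.92, 0.72 and 1 with the Asxl1 guide and 0 in both double libraries. All 4 lost regions entered the test of double against Asxl1 guide cells through the Asxl1 guide libraries alone, so these values are a description. The remaining region, 56.6 kb after the start, kept fractions of 0, 0.44 and 0.19 in CSF3R T618I cells and 0 and 0.63 in double cells.

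No H3K27me3 peak reached the 5 kb windows around these Irf8 regions in any of the 10 libraries. Around the Irf8 start site itself, H3K27me3 covered fractions of 0.73, 0.80 and 0.94 of a 5 kb window in CSF3R T618I cells and 0 in both control and both double libraries. In the Asxl1 guide libraries it covered 0, 0.05 and 0. H3K4me1 was thus absent from the 4 lost regions in CSF3R T618I and double cells alike, while H3K27me3 lay at the start site in CSF3R T618I but not in double cells. This window was chosen after its values were seen and was not tested. H2AK119ub covered means of 0.76 ± 0.33 (SD, n = 2) of it in control, 0.25 ± 0.20 (SD, n = 3) with the Asxl1 guide, 0.67 ± 0.29 (SD, n = 3) in CSF3R T618I and 0.68 ± 0.37 (SD, n = 2) in double cells. The groups overlapped, except that the Asxl1 guide libraries (0.08, 0.21 and 0.47) lay below both control libraries (1 and 0.53).

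**Figure D3:**
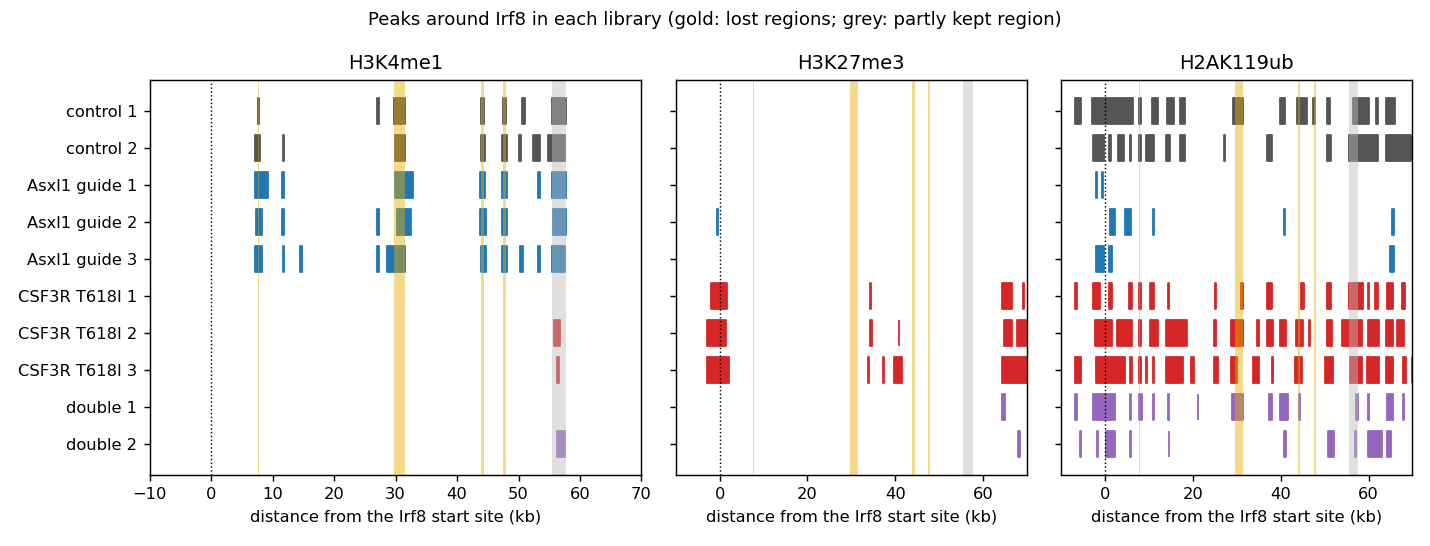
Peaks of the 3 marks in each library from 10 kb before to 70 kb after the first Irf8 start site (dotted line); each bar is a peak, gold bands are the 4 lost regions and the grey band is the region partly kept. H3K4me1 bars fill the gold bands in control and Asxl1 guide libraries and are missing from them in CSF3R T618I and double libraries, and H3K27me3 bars sit on the start site in the 3 CSF3R T618I libraries.

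The lost regions were spread over 677 nearest genes, 548 of them with 1 lost region, and 44 regions had no protein-coding gene within 100 kb. At 262 of these genes no kept region lay nearest. The genes with the most lost regions were Nrg2, a neuregulin ligand of ErbB receptors, with 7 lost, Aff3, a member of the AF4 transcription elongation family, with 6. A further 13 genes tied at 4 lost regions, and of these Ednra, the endothelin A receptor, Irf8, the scaffold gene Tanc1 and the translation factor gene Ctif are described, taken by the fewest kept regions and then by alphabet. They did not share a state in the sgB2 libraries. The 7 Nrg2 regions had mean fractions between 0 and 0.17 with the Asxl1 guide and 0 in double cells. Of the 6 Aff3 regions, 2 were covered in all 5 libraries with the Asxl1 guide. Another, chr1:38232601-38233650, was wholly covered in the 3 Asxl1 guide libraries and at 0 in both double libraries, which is a description.

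The 10 widest lost regions were 3250 to 7050 bp long, and none had a peak in a double library. Those tested thus entered the test through the Asxl1 guide libraries alone, so their values are a description. The widest, in Ednra (chr8:77710301-77717350), was covered at fractions of 0.33, 0.50 and 0.33 with the Asxl1 guide. The next, in the phospholipid flippase gene Atp8a2 (chr14:59964501-59970750), was covered at 0.98, 0.80 and 0.74. Dennd2a, a regulator of Rab GTPases, had 1, 0.94 and 0.74, and the region beside the protease gene Htra3 had 0.52, 0.40 and 0.65. In Tgfbr3, the TGF-beta co-receptor betaglycan, fractions were 0.72, 0.32 and 0.98. In Aplnr, the apelin receptor gene, they were 0.73, 0.07 and 0.51. Wide lost regions were thus covered to unequal extents among the Asxl1 guide libraries.

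Among regions that fell in double against Asxl1 guide cells, those with the lowest p-values were wholly covered in the 3 Asxl1 guide libraries and empty in both double libraries, which ties their p-values, and the widest of them are named. They lay in Mras, a Ras-family GTPase gene, Cyth1, an exchange factor for Arf GTPases, Aff3 and Tcerg1l. The others lay 37.5 kb from the glypican gene Gpc1 and 4.79 kb from the mitochondrial nucleoside kinase gene Dguok. All of them entered the test through the Asxl1 guide libraries alone, so their values are a description. The 7 regions that rose had no peak with the Asxl1 guide and peaks in both double libraries, as in control. These 7 regions entered the test through the double libraries alone, so their values are a description. They lay in Scin, an actin-severing protein gene, Zbtb16, which encodes the progenitor transcription factor PLZF, and Otulin, a linear ubiquitin hydrolase gene. The rest lay nearest to Ssr3 (19.2 kb away), Lypd6 (55.7 kb), Cystm1 (2.87 kb) and Tent5a. At Zbtb16 the fractions were 0, 0, 0 against 1 and 1, while another lost region of that gene held 1, 0.60 and 1 against 0 and 0.

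Lists of blood genes are given as counts of lost among reproducible regions nearest to their genes, beside 909 of 14301 over all genes. For stem and progenitor genes it was 7 of 116, at Kit, the stem cell factor receptor (2 regions), Etv6, Runx3, Bcl11a, Hmga2 and Angpt1. For myeloid transcription factors it was 5 of 78, 4 at Irf8 and 1 at Bhlhe40. For primary granule genes it was 0 of 19, for late neutrophil genes 1 of 81 (the adhesion receptor gene Ceacam1) and for monocyte, macrophage and dendritic genes 2 of 57 (Batf3 and the fractalkine receptor gene Cx3cr1). JAK-STAT and cytokine genes had 4 of 112, at the kinase gene Jak1 and at Ptpn11, which encodes the phosphatase SHP2. Polycomb, Asxl and Bap1 genes had 6 of 49, at Kdm2b, which brings PRC1 to unmethylated CpG islands (3), the PRC2 cofactor gene Jarid2 (2) and Foxk1. Cell cycle genes had 1 of 45 (E2f3), mast, basophil and eosinophil genes 1 of 26 (Il4), erythroid and megakaryocyte genes 1 of 24 (Vwf) and lymphoid genes 2 of 38 (Ets1 and Ikzf1). Hox genes had no reproducible region.

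Within these lists 5 regions fell in double against Asxl1 guide cells, the 4 at Irf8 and 1 in Kdm2b (chr5:122895151-122896100). The Kdm2b region had fractions of 0.74, 0.74 and 0.58 against 0 and 0. The region inside Kit had 1, 0 and 0.70 against 0 and 0 and was not among the 5. All of these entered the test through the Asxl1 guide libraries alone, so their values are a description. The region 61.4 kb from Runx3, a transcription factor of T cells and myeloid cells, was wholly covered in all 5 libraries, and that beside Batf3, a factor of cross-presenting dendritic cells, had 1, 0 and 1 against 1 and 0.83. The region 26.5 kb from Vwf, the von Willebrand factor gene, had 0.90, 0.70 and 0.90 against 0.70 and 0.50 (limma adjusted p = 0.32). These 3 regions were thus found in the double libraries although absent in CSF3R T618I cells.

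H3K27me3 was rare on the lost regions. A peak lay on 3 and 7 of the 909 in control, on 0, 17 and 3 with the Asxl1 guide, on 20, 23 and 30 in CSF3R T618I cells and on 27 and 32 in double cells. The mean share was 0.550% ± 0.311 (SD, n = 2) in control and 2.68% ± 0.565 (SD, n = 3) in CSF3R T618I cells. On kept regions the means were 0.263% ± 0.0897 (SD, n = 2) and 0.586% ± 0.145 (SD, n = 3). From control to CSF3R T618I cells total H3K27me3 coverage moved the same way, at 15.9 and 22.7 Mb against 31.3, 34.1 and 42.2 Mb. In double cells it did not, with coverage of 19.2 and 14.2 Mb. Their mean shares were 3.25% ± 0.389 on lost and 1.51% ± 0.775 on kept regions (SD, n = 2). With the Asxl1 guide these means were 0.733% ± 0.998 and 0.371% ± 0.399 (SD, n = 3).

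H3K27me3 was tested as the fraction of a 5 kb window centred on each region, over windows that reached 0.2 in at least 2 of 10 libraries. This held for 133 reproducible regions, 25 of them lost. Around 15 lost regions H3K27me3 rose in CSF3R T618I against control cells and around 0 it fell, where 35.3% of all windows tested were higher and 0.0% lower (limma, adjusted p under 0.05, and 0 lost regions lower at an unadjusted p under 0.05). In double against Asxl1 guide cells it rose around 3 (12.0% of all higher, 0.0% lower, and again 0 lost regions lower at an unadjusted p under 0.05). In double against CSF3R T618I cells it fell around 7 (12.8% of all lower) and rose around 0 (3.01% of all higher, and 1 lost region higher at an unadjusted p under 0.05). The count of 3 in the second comparison lies near what the share over all windows gives, so it is no result about the lost regions. These comparisons share libraries. A window could pass the minimum only through groups where the mark was present, so these counts describe the windows that passed. With the log2 covered length of each library as a covariate the 3 counts were 14, 3 and 6. Without control replicate 1 the first was 9, without Asxl1 guide replicate 2 or double replicate 2 the second was 5 or 6, and without double replicate 1 or 2 the third was 3 or 2.

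The lost regions with H3K27me3 in CSF3R T618I cells differed in double cells. In Pth1r, the parathyroid hormone receptor gene (chr9:110734101-110735350), the window was at 0 in control and Asxl1 guide libraries, at 0.41, 0.49 and 0.55 in CSF3R T618I and at 0 in both double libraries. It was higher with CSF3R T618I than in control by 0.48 ± 0.06 (SE) and lower in double than in CSF3R T618I cells by the same amount. Plxnd1, a semaphorin receptor gene, had 0.37, 0.64 and 0.51 in CSF3R T618I and 0 in the other 7 libraries. The brachyury-related gene T2, the aldose epimerase gene Galm and Pomgnt2, a glycosyltransferase gene of dystroglycan, were also higher with CSF3R T618I and lower in double cells. None of these windows would have entered the test without the CSF3R T618I libraries, so their values are a description.

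St3gal2, a sialyltransferase gene, had 3 lost regions whose windows carried H3K27me3 in both groups with the receptor mutant. The first, beside the gene (chr8:110919251-110919550), had 0.53, 0.52 and 0.54 in CSF3R T618I, 0.61 and 0.35 in double cells and 0 in the other 5 libraries. It was higher in CSF3R T618I than in control by 0.53 ± 0.08 (SE) and in double than in Asxl1 guide cells by 0.48 ± 0.08 (SE). Double and CSF3R T618I cells differed there by -0.05 ± 0.08 (SE, limma adjusted p = 0.65). The other two windows rose in both comparisons as well, and they were the only lost regions called in double against Asxl1 guide cells besides the first. These 3 windows belong to one locus and are not independent. They entered the test through the CSF3R T618I and double libraries alone, so both rises are a description.

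**Figure D4:**
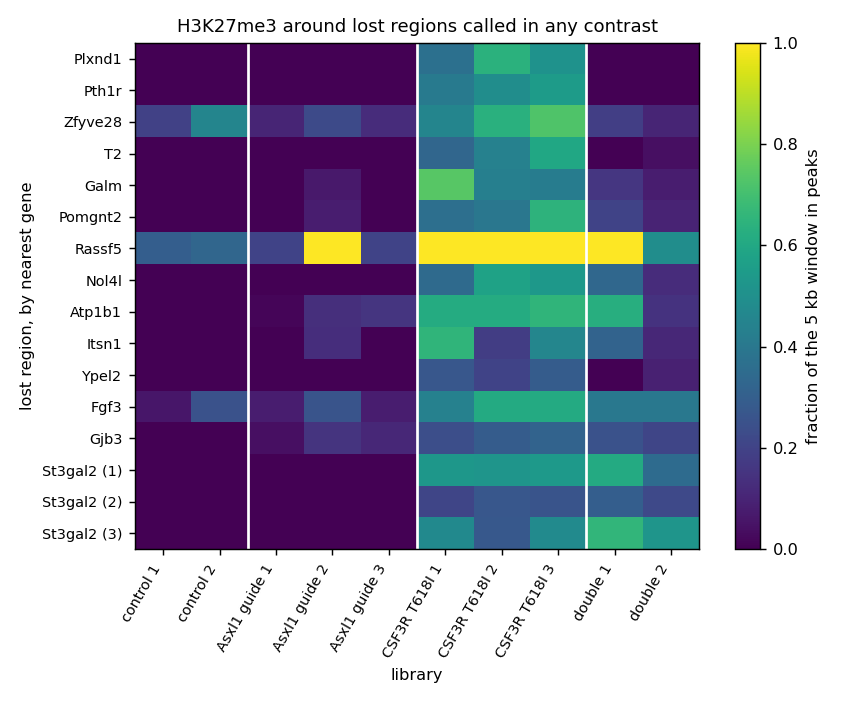
Fraction of the 5 kb window around 16 lost regions (rows, by nearest gene) covered by H3K27me3 peaks in each of 10 libraries (columns); these are the lost regions called in at least 1 of the 3 comparisons, and numbers in brackets separate regions of one gene. The Plxnd1 and Pth1r rows are bright in CSF3R T618I libraries and at 0 in double libraries, and the 3 St3gal2 rows are bright in both.

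H2AK119ub was more frequent, and its share on lost regions followed that on kept regions. A peak lay on 6.27% and 5.39% of lost regions in control, 2.31%, 2.75% and 3.63% with the Asxl1 guide, 6.93%, 8.69% and 10.1% in CSF3R T618I and 15.7% and 9.35% in double cells. The means were 5.83% ± 0.622 (SD, n = 2), 2.90% ± 0.672 (SD, n = 3), 8.58% ± 1.60 (SD, n = 3) and 12.5% ± 4.51 (SD, n = 2). On kept regions they were 7.86% ± 0.160, 4.12% ± 0.435, 10.3% ± 2.01 and 15.3% ± 3.45 (SD, with the same n). Both sets were lowest with the Asxl1 guide and highest in double cells, where total H2AK119ub coverage was also lowest (11.8, 13.4 and 16.7 Mb) and high (39.1 and 22.6 Mb).

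Of 1048 windows tested for H2AK119ub 83 were on lost regions. At 5 of these, those of Zbtb18, Csf2, Srl, Kdr and 1 of St3gal2, the minimum was passed through the double libraries alone, so a difference there was set by the minimum. At others, such as Klf9, only 1 library outside double cells reached 0.2, so the double libraries were still needed. In CSF3R T618I against control cells the mark rose around 4 lost regions and fell around 0 (5.44% of all higher, 0.954% lower, and 0 lost regions lower at an unadjusted p under 0.05 in limma). In double against Asxl1 guide cells it rose around 27 and fell around 0 (36.7% of all higher, 0.859% lower, and 0 lost regions lower at an unadjusted p under 0.05). In double against CSF3R T618I cells it rose around 9 (15.5% of all higher) and fell around 4 (5.34% of all lower). With covered length as a covariate, 2 of the 27 were called, and without double replicate 1 9 were. Without double replicate 1 the rise against CSF3R T618I cells was called around 1 lost region instead of 9. Without single libraries the 4 regions against control became 1 to 7, 1 without control replicate 1, 2 without control replicate 2, Asxl1 guide replicate 1 or 2 or CSF3R T618I replicate 3, and 7 without CSF3R T618I replicate 1 or either double replicate. The counts of regions with a rise in each comparison, and that with a fall in the last, lie near or below what the shares over all windows give. They are no result about the lost regions.

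The region 92.6 kb from Rbm19, an RNA-binding protein gene of ribosome assembly (chr5:120023201-120024600), had H2AK119ub over 0.32 and 0.22 of the window in control and 0.11, 0.07 and 0.11 with the Asxl1 guide. It was wholly covered in all 5 libraries with CSF3R T618I (rise of 0.73 ± 0.05, SE, against control, limma adjusted p = 0.00010). The first St3gal2 window had 0.44, 0.48 and 0.41 in CSF3R T618I, 0.53 and 0.37 in double cells and 0 in the rest. This window thus held both Polycomb marks in the CSF3R T618I and double libraries and neither in the rest. It entered both tests through those libraries alone, so this is a description.

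Other windows held H2AK119ub mainly in double cells. Those of Kdr, Klf9 and Csf2 would not have entered the test without the double libraries, so their values are a description. At Kdr, the main VEGF receptor gene (92.7 kb away, chr5:75839451-75840900), H2AK119ub covered 0.45 and 0.27 in double cells and 0 in the other 8 libraries. H3K4me1 of that region was lower in double than in Asxl1 guide cells, at a mean fraction of 0.99 ± 0.02 (SD, n = 3) with the Asxl1 guide and 0 in double cells. For H3K4me1 it entered the test through the Asxl1 guide libraries alone, so this too is a description. Beside Klf9, a Kruppel-like factor gene, H2AK119ub covered 0.51 and 0.59 in double cells, 0.09, 0.20 and 0 in CSF3R T618I and 0 elsewhere. Around the region 22.6 kb from Csf2, the gene of granulocyte-macrophage colony-stimulating factor, H2AK119ub covered 1 and 0.45 in double cells and at most 0.12 in the other 8 libraries. The 4 windows lower in double than in CSF3R T618I cells were those in Pth1r, Ctif and Nol4l and 1 with no protein-coding gene within 100 kb. The last of these entered the test through the CSF3R T618I libraries alone, so its values are a description. At Pth1r H2AK119ub stood at 0.61 and 0.49 in control, 0.05, 0 and 0 with the Asxl1 guide, 0.68, 0.93 and 0.90 in CSF3R T618I and 0.63 and 0.46 in double cells.

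**Figure D5:**
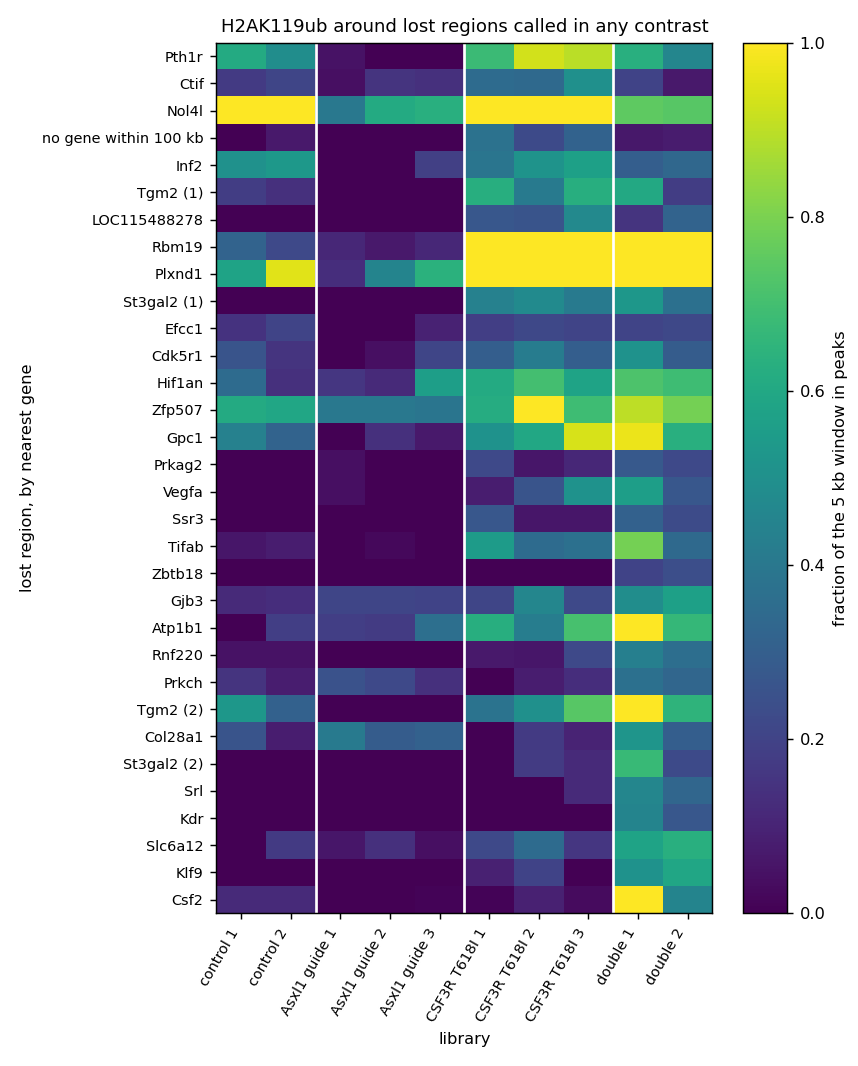
Fraction of the 5 kb window around 32 lost regions (rows, by nearest gene) covered by H2AK119ub peaks in each of 10 libraries (columns); these are the lost regions called in at least 1 of the 3 comparisons. The Rbm19 row is filled in all 5 libraries with CSF3R T618I, and the Kdr, Klf9 and Csf2 rows are brightest in the 2 double libraries.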

How the data were processed

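CUT&Tag libraries of 3 histone marks in 4 groups gave 30 peak lists, with 1 merged IgG list. Reads were aligned with Bowtie2 2.4.1 to mm10 and handled with deepTools 3.5, per the submitters' processing notes, and no peak caller is named in the sources used here. The deposited lists held positions alone, in steps of 50 bp from a width of 200 bp, so the depth is unknown and signal just under the authors' threshold counts as absent. The fraction of a region or 5 kb window in peaks was computed from them with Python 3.11.15 and tested with limma 3.58.1 (R 4.3.3) with Benjamini-Hochberg adjustment over all regions tested (adjusted p under 0.05), after a check on simulated data. The H3K4me1 fit held the 5 libraries with the Asxl1 guide and the Polycomb fits all 10 libraries. Genes are the closest protein-coding gene bodies within 100 kb of the region's centre, from RefSeq (GRCm38.p6), without Gm and Rik models. Named regions were the 10 widest, up to 4 per gene list, up to 6 per direction and comparison by p-value (ties by width), and those of 6 genes with many lost regions (13 tied at 4, taken by fewest kept regions, then alphabet); the regions over promoters, Tent5a, Foxk1, Bcl11a, Hmga2, Angpt1 and the other Zbtb16 region were added after their values were seen. Members and lists were chosen with earlier results of these data known.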

Additional observations from a re-analysis of the deposited data

How the results depend on the processing

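The number of lost regions stayed within 1.5 times of 909, from 754 to 1270, when the seed library, the overlap, the distance to CSF3R T618I peaks, short peaks or IgG regions were changed. It ranged from 1014 to 1414 without single CSF3R T618I libraries. The mean share with an H3K4me1 peak in double cells was 23.4% when an overlap of at least 0.5 of the region was asked for and 19.7% with peaks under 400 bp removed, against 70.1% and 71.1% with the Asxl1 guide. Without single libraries it ran from 7.81% to 17.0% in double cells and from 49.0% to 64.4% with the Asxl1 guide. The last set of these and the split by width were chosen after seeing the data.

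For H3K4me1, 57 to 241 lost regions fell in double against Asxl1 guide cells without single libraries, and 68 with regions extended by 500 bp. With the replicate number as a block 0 were called in limma (159 lower at an unadjusted p under 0.05). Same-numbered Asxl1 guide and double libraries had deviation correlations of 0.16 and 0.05 for this mark, which does not show that the numbers pair the samples.

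For H3K27me3, without single libraries the counts were 9 to 16 (CSF3R T618I against control), 2 to 6 (double against Asxl1 guide) and 2 to 9 (double against CSF3R T618I). With no minimum the second was 12, in the region itself 7, and in a 10 kb window the third was 14. For H2AK119ub the ranges were 1 to 7, 9 to 29 and 1 to 13. The first was 2 with no minimum, 8 in a 10 kb window and 2 with the replicate block, the second 2 with covered length as covariate, and the third 22 with no minimum and 17 in the region itself. With no minimum, most residual variances of the Polycomb fits were 0 and limma warned that its moderation is unreliable. The cause of these differences was not tested.

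Depth is unknown, so a missing peak is not shown to be a missing mark, above all in regions of 200 to 400 bp. Control and double cells had 2 libraries each for a mark, so 1 library can move a count. The Asxl1 and CSF3R T618I alleles could not be checked in these files.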
